A study of Mus musculus with 4 samples.

Results

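Open chromatin was examined at peaks that lie between genes and more than 200 kb from the transcription start site (TSS) of the gene the authors assigned to them. The deposited comparison of Rnf20 knockout and control retinal endothelium lists 6891 peaks, and 332 of them carry the annotation Intergenic with an absolute distance to the TSS above 200000 bases. Accessibility was read by ATAC-seq, a method that marks open DNA by where a transposase can insert, on endothelial cells pulled from mouse retinas at postnatal day 7 (P7) with beads against the endothelial surface protein CD31. The strain is given as C57BL/6-Tg(Pdgfb-icre/ERT2), crossed with the allele Rnf20tm1a(EUCOMM)Wtsi. Control mice carried the Rnf20 floxed alleles without the Cre transgene (Pdgf{beta}CreERT2neg Rnf20p/p). Knockout mice carried the same alleles with it (Pdgf{beta}CreERT2pos Rnf20p/p), and the treatment protocol gives 75 µg of 4-hydroxytamoxifen a day on P1 to P4, with no exception stated for controls. The Cre is driven by Pdgfb, a gene of endothelial cells, so deletion depends on where that promoter is active, and no control with Cre and without the floxed alleles is among the labels. Of 4 labelled libraries, 1 control and 1 knockout have labels that all name the same genotype, and 2 have a title that names the other genotype than their genotype field and track name. The table gives 1 mean per group and does not say which libraries entered it. The knockout and control columns are therefore the authors' means, with no spread between animals. The protocol caps the input at 50000 cells, while the design text speaks of about 2000.

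RNF20 is a ligase that attaches ubiquitin to histone H2B, a mark laid down along transcribed genes and linked to the opening of chromatin and to later histone methylation. Gene deserts are long stretches with no protein-coding gene. They often hold enhancers, which can act on promoters over large distances through chromatin loops, as is known for deserts beside developmental transcription factors such as Sox9 and for the desert beside Myc. The gene named for a peak here has the nearest TSS in the authors' annotation and is not a measured target. For this reason each peak is also placed by the pair of named coding genes that flank it in the RefSeq annotation. Predicted genes (Gm or LOC plus digits) and Rik genes were not used as flanks, so a coding one can lie between the pair.

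The peaks had 251 assigned genes, of which 248 matched the RefSeq gene table of GRCm38.p6, the assembly also called mm10, and 199 of the genes had 1 peak each. The peaks lay upstream of the assigned TSS in 148 cases and downstream in 184. Their distance ran from 200083 to 1894439 bases, with a median of 320676. The space between the flanking genes had a median, over peaks, of 1.06 Mb and ran from 134 kb to 4.51 Mb, and 179 peaks lay in a space of over 1 Mb. At the 200 kb limit, the authors' deposited table gives the peak nearest inside to Ankrd55 (200083 bases, knockout mean 4.60, control mean 3.65) and the next to Ptpru (200305 bases, 3.36 and 0). The peaks nearest outside were assigned to Cadps (199837 bases, 4.37 and 2.59) and Marcks (199609 bases, 5.76 and 4.81).

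Judged by starts, the label of gene desert held at most peaks for coding genes and not for all transcripts. The bodies of coding genes could lie nearer. The peak between Sash1 and Samd5 was 22076 bases from the nearest named one. In RefSeq, 40 of the 332 peaks overlapped a gene by at least 1 base. Of these, 34 overlapped a long noncoding RNA and 5 a coding gene, namely Tenm2, Ppargc1a, Zfp536, Nrg1 and the predicted Gm9195. On the chromosomes whose RefSeq starts were covered, 11 of 312 peaks had a coding start within 200 kb, but 199 had a start of any kind within that distance. The median distance to the nearest start of any kind was 119759 bases. Of 10 lists of cell type markers, including 14 endothelial genes, none had a gene with an assigned peak here, so the CD31-selected cell type could not be checked on these peaks. Over the whole table the 14 endothelial genes had 16 listed peaks and each other list, of 5 to 8 genes, from 1 to 5. The Müller glia list had 5 peaks for 5 genes. The lists differ in length, so these counts cannot be compared directly. Sox9, of the Müller glia list, was the one marker that flanked any (5 peaks).

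Peak sequence could be read for 5 peaks, where a RefSeq start window of 300 bases (250 before to 50 after a start, GRCm38.p6) reached the peak. In each case the start belongs to a predicted transcript that the authors' annotation did not use. The 2 peaks that lie wholly in such a window and the 1 of the remaining 3 that shares the most bases are shown, because they show the most bases of a far-intergenic peak that can be set beside its accessibility. Capitals mark bases of the peak, with the deposited coordinates taken as counted from 1. Each window reads 5′ to 3′ on the strand of the predicted transcript.
Gm40751 start, minus strand, peak chr10:104936668-104936778 between Slc6a15 and Tmtc2: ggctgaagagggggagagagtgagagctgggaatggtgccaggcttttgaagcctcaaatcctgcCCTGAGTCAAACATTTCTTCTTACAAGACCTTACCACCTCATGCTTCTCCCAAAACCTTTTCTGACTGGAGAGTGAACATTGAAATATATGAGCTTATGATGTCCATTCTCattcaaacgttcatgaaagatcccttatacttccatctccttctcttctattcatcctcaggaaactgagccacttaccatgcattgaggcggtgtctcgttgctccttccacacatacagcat
Gm39311 start, plus strand, peak chr9:23581108-23581285 between Bmper and Npsr1: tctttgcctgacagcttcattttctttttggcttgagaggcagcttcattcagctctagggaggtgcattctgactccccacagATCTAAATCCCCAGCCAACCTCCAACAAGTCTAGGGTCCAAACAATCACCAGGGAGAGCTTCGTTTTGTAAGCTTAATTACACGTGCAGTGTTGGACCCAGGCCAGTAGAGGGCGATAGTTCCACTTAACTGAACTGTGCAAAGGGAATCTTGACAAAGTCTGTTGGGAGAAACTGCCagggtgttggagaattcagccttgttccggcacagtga
Gm40659 start, plus strand, peak chr13:5258402-5258703 between Akr1e1 and Klf6: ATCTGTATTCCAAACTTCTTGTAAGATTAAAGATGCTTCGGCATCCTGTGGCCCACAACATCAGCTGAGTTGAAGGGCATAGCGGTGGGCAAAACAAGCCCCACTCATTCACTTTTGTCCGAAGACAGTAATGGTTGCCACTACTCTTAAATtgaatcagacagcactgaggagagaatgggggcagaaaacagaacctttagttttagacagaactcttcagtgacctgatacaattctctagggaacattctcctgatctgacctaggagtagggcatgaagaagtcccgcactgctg

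The first peak had a knockout mean of 3.29 and a control mean of 1.78 in the authors' deposited table, with a false discovery rate (FDR) of 0.49. The second had a knockout mean of 2.66 against a control mean of 3.84 (FDR = 0.35), and the third means of 3.96 and 2.72 (FDR = 0.437). Thus 2 were listed higher in knockout and 1 lower, and none passed FDR < 0.05. A search of both strands covered 11 short motifs. The letters were TGANTCA for AP-1 factors, CCGGAAG for the ETS family, ACAATGG for SOX factors, TGTTTAC for forkhead factors and AGATAA for the GATA family. They were GGAATG for TEAD factors, GTGGGAA for the Notch effector RBPJ, TAATTA for homeodomain factors and TAATCC for the photoreceptor factors CRX and OTX. The last were CAGCTG for E-box factors and AGGGGGCGC for the insulator protein CTCF. No match of one overlapped a match of another in the windows shown. The Gm40751 window held the AP-1 letters inside the peak, starting at base 68 of the window, and 7.81% of 32851 start windows hold them. It also held the TEAD letters at base 30, outside the peak, which 14.7% of windows hold. The Gm39311 window held the homeodomain letters inside the peak at base 159, which 5.29% of windows hold. The Gm40659 window held the E-box letters inside the peak at base 62, which 16.3% of windows hold, with AP-1 letters starting at base 153, the base after the peak ends. Such matches are descriptions of the letters and not of binding.

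Most of the far-intergenic peaks in the table were listed with a higher mean in knockout cells, while 13 of the 20 that passed the threshold fell. The authors' deposited table lists 271 of the 332 (81.6%, 95% Wilson interval 77.1 to 85.4) with a positive log2 fold and 61 with a negative one, against 62.1% positive over all 6891 listed peaks. It lists 7 as higher at FDR < 0.05, 2.11% of the peaks against 1.29% of the whole table. It lists 13 as lower at that FDR, 3.92% of the peaks against 1.73% of the whole table. At FDR < 0.1 the counts were 27 higher (8.13%, against 4.14%) and 23 lower (6.93%, against 3.76%). No test of these shares against the rest of the table was made, because neighbouring peaks share their libraries and the intervals cover counting error only. The table holds only peaks with an unadjusted p-value of at most 0.0499, so the shares describe listed differences and not all open sites in these deserts.

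The median log2 fold of the listed peaks was 1.40 (0.93 over the whole table), and 1.33 without the 39 peaks at which a group mean stood at the lowest value of its column. In the authors' deposited table the higher peaks had knockout means from 2.24 to 7.56 (median 3.96) and control means from 0 to 6.95 (median 2.30) on the log2 signal scale. The lower peaks had knockout means from 0.13 to 5.41 (median 1.72) and control means from 2.78 to 6.38 (median 3.54). The ranges of both sets overlapped in each column. The higher peaks had a median width of 263 bases and the lower ones of 162. A control mean of 0, the lowest of its column, stood at 26 higher peaks, and a knockout mean of 0.13, the lowest of its column, at 13 lower ones. Means under 1 were found in knockout at 24 lower peaks, among them 10 of the 13 with FDR < 0.05, and in control at 52 higher peaks. Low means repeated exact levels, such as 0.89 in knockout at 5 peaks and 0.51 in control at 8, and the depth behind each value is unknown. A fold against the lowest value of a column is not given below.

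**Figure D1:**
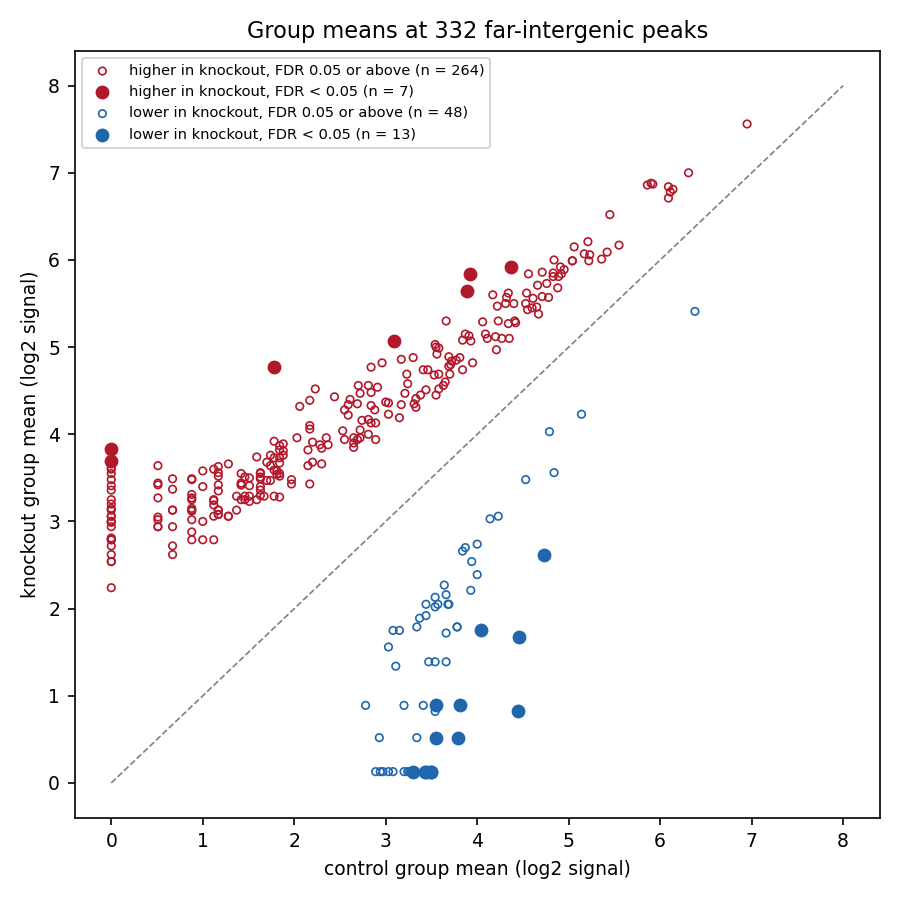
Control mean (x axis) against knockout mean (y axis), both log2 signal as the authors deposited them, for the 332 intergenic peaks over 200 kb from their assigned TSS. Filled points are the 7 higher and 13 lower peaks with FDR < 0.05, the dashed line marks equal means, and the table holds only peaks with p of at most 0.0499, which leaves the band around that line empty.

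The share listed higher went with signal strength. Among the 125 peaks whose mean signal was at or above 3.74, the median of the whole table, the authors' deposited table has 118 higher in knockout (94.4%, Wilson interval 88.9 to 97.3). Among the 207 weaker peaks it has 153 higher (73.9%, 67.5 to 79.4). The same split of the whole table gives 63.2% and 60.9%. Of the 13 peaks that fell at FDR < 0.05, 12 were in the weaker set, while 5 of the 7 that rose were in the stronger set. Over the whole table, 93 of the 119 peaks that fell at that FDR were below the same signal. The 89 that rose were 45 at or above it and 44 below. Intergenic peaks nearer to a TSS had lower shares on both sides of the split: within 10 kb 74.9% of stronger and 61.4% of weaker peaks were higher, from 10 to 50 kb 79.8% and 65.3%, and from 50 to 200 kb 85.9% and 72.7%. For weaker peaks the interval at 50 to 200 kb (68.5 to 76.5) overlapped that beyond 200 kb. For stronger peaks it ran from 82.5 to 88.8 and ended just short of the interval beyond 200 kb. The intervals cover counting error only and neighbouring peaks share their libraries, so this is no test between the ranges. Over all signal levels the share was 68.6%, 72.6%, 79.4% and 81.6% in the 4 distance ranges, and 52.0% among the 3882 peaks that are not intergenic.

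**Figure D2:**
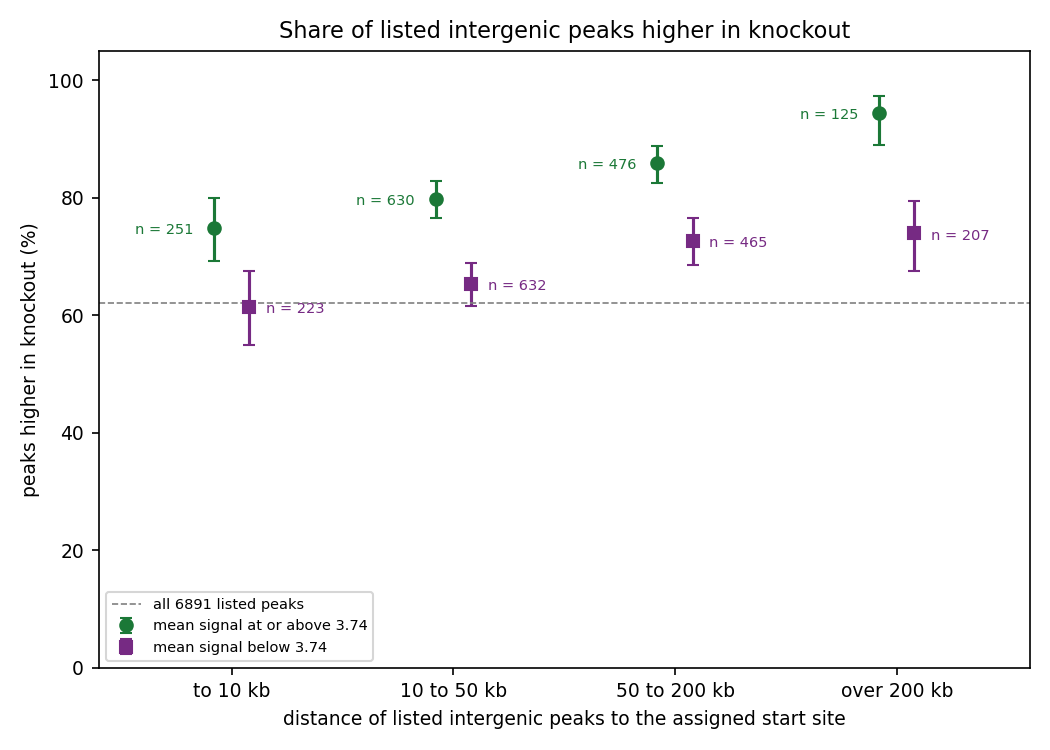
Percent of listed intergenic peaks with a higher knockout mean (y axis) by distance to the assigned TSS (x axis), for peaks at or above (circles) and below (squares) a mean signal of 3.74. Bars are 95% Wilson intervals, which cover counting error only, n is the number of peaks, and the dashed line is the 62.1% of all listed peaks; beyond 200 kb the stronger peaks stand at 94.4% and the weaker at 73.9%.

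Among the far-intergenic peaks themselves the share did not go on rising with distance. From 200 to 300 kb, 125 of 147 were listed higher (85.0%), from 300 to 500 kb 102 of 121 (84.3%), from 500 kb to 1 Mb 40 of 56 (71.4%, Wilson interval 58.5 to 81.6), and beyond 1 Mb 4 of 8. Up to 300 kb, 3 peaks rose and 3 fell at FDR < 0.05, each 2.04% of the range. From there to 500 kb 3 rose (2.48%) and 4 fell (3.31%), and up to 1 Mb 1 (1.79%) and 4 (7.14%). Beyond 1 Mb 0 rose and 2 of 8 fell. These 2 were the peak nearest to Olfm4, the farthest of all at 1894439 bases, and one at 1123396 bases from 4930553E22Rik. Of all far-intergenic peaks 2.11% rose and 3.92% fell, against 1.29% and 1.73% of all 6891 listed peaks. The median of the mean signal was 3.56, 3.11, 3.075 and 2.72 in the 4 ranges. Of the 13 peaks that fell, 12 had a mean signal below 3.74, so distance was not separated from signal. Peaks upstream of the assigned TSS were higher in 127 of 148 cases (85.8%, 79.3 to 90.5) and those downstream in 144 of 184 (78.3%, 71.8 to 83.6), with overlapping intervals.

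**Figure D3:**
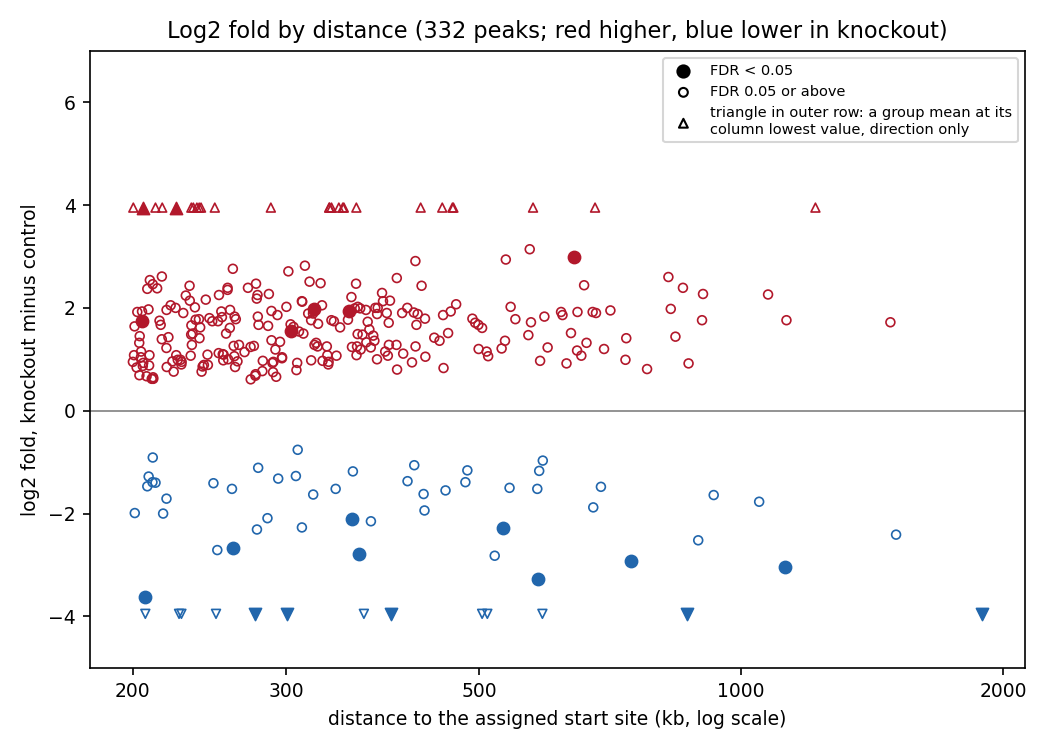
Log2 fold of each of the 332 peaks (y axis, knockout minus control, as deposited) by distance to the assigned TSS (x axis, kb, log scale), red where knockout is higher and blue where it is lower. Filled marks are the 20 peaks with FDR < 0.05, and triangles in the outermost rows are the 39 peaks with a group mean at its column's lowest value, for which only the direction is shown; of the 8 peaks beyond 1 Mb 4 are higher and 4 lower.

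At FDR < 0.05, 7 peaks rose in the authors' deposited table, and 5 of them had a control mean above 0, from 1.78 to 4.37. The peak of smallest FDR, chr10:9239897-9240385, lies between Sash1, an adaptor with SH3 and SAM domains, and Samd5, and is 354071 bases from the Sash1 TSS. The table gives it a knockout mean of 5.84 and a control mean of 3.92, a log2 fold of 1.93 (FDR = 0.00126). The peak chr14:86450624-86451137, between the protocadherin gene Pcdh17 and the formin gene Diaph3, had means of 5.64 and 3.89, with FDR = 0.0127 and a log2 fold of 1.74 as listed in the authors' deposited table. The peak chr6:93266848-93267274 lies 323527 bases from Adamts9, which encodes a secreted metalloprotease of the extracellular matrix, with Magi1, a scaffold of cell junctions, on the other side. The authors' deposited table gives means of 5.07 and 3.09, a log2 fold of 1.98 (FDR = 0.0214). The other 2 peaks with a control mean above 0 are on chromosome 2. The peak chr2:9493572-9494231, in the desert between the RNA-binding protein gene Celf2 and the transcription factor gene Gata3, had means of 5.92 and 4.37 (log2 fold 1.55, FDR = 0.0441). The peak chr2:108635508-108635969, 642551 bases from Mettl15, a mitochondrial RNA methyltransferase gene, and in one space with the potassium channel gene Kcna4, had means of 4.77 and 1.78 (log2 fold 2.99, FDR = 0.0299). The remaining pair was listed at 0 in control cells. One, chr4:73057952-73058151 between Aldoart1 and Rasef, had a knockout mean of 3.83 (FDR = 0.0248), and the other, chr15:49015957-49016232 between Csmd3 and Trps1, one of 3.69 (FDR = 0.0484). The 5 peaks with a control mean above 0 had widths from 426 to 659 bases, all above the median of 235 for the 332.

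At FDR < 0.05, 13 peaks fell, most of them to a level near the bottom of the knockout column. The smallest FDR of all far-intergenic peaks, 0.000399, belonged to chr13:110601424-110601638, 206487 bases from Plk2, a polo-like kinase gene, and between it and Actbl2. The authors' deposited table gives it a knockout mean of 0.82 and a control mean of 4.45, a log2 fold of -3.62. A neighbour at chr13:110601753-110601876 stood at 0.13 and 3.24 but did not pass (FDR = 0.0572). The peak chr4:121986175-121986474, between Rlf and Ppt1, had means of 1.68 and 4.46 in the authors' deposited table, a log2 fold of -2.78 (FDR = 0.00718), and the next listed peak was lower too (log2 fold -2.15, FDR = 0.0955). These were the only 2 runs of neighbouring far-intergenic peaks that were listed lower.

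Other peaks that fell had the following genes on either side, often far away. The spaces between Nr2f2 and Mctp2, Zeb2 and Acvr2a, and Meis2 and Tmco5 span 1711, 3697 and 811 kb. The nearest named coding gene lay 752619, 1326939 and 260648 bases from the peak in these spaces. The peak chr7:71324907-71325208 is between Nr2f2, whose product COUP-TFII is known for venous identity, and Mctp2, and the authors' deposited table gives means of 0.52 and 3.79 (log2 fold -3.27, FDR = 0.0214). The peak chr2:46444381-46444586 is between the repressor gene Zeb2 and the activin receptor gene Acvr2a, with means of 0.89 and 3.81 (log2 fold -2.92, FDR = 0.0244). The peak chr2:116617797-116618045 is between the homeobox gene Meis2 and Tmco5, with means of 0.89 and 3.55 (log2 fold -2.66, FDR = 0.0401). All 3 had a control mean above 3.5 and a knockout mean under 1. The peak chr2:94794841-94795323 is in the 1880 kb space between Api5 and Lrrc4c, a netrin-G ligand gene. It lay 356655 bases from Api5, the nearer gene, and had means of 2.62 and 4.73 (log2 fold -2.11, FDR = 0.0377). A peak 533309 bases from Lrrn3, a leucine-rich repeat gene, and between Immp2l and Dnajb9, had means of 1.75 and 4.04 (log2 fold -2.29, FDR = 0.0333). The peak chr16:83247645-83247848 between the neural adhesion gene Ncam2 and Mrpl39 had means of 0.52 and 3.55 (log2 fold -3.03, FDR = 0.039). These genes are 3094 kb apart, and the nearer one lay 1470433 bases from the peak. The peak of this set with the highest knockout mean was the one between Api5 and Lrrc4c.

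Of the peaks that fell, 5 had a knockout mean of 0.13, so that only their control means are informative. In the authors' deposited table these control means were 3.50 for a peak between Prmt6 and Amy2b (FDR = 0.0273) and 3.50 for one between the teneurin gene Tenm3 and Aga (FDR = 0.0273). They were 3.44 between Olfm4 and Pcdh17 (FDR = 0.0328) and 3.43 between the transcription factor gene Dach1 and Mzt1 (FDR = 0.0392). For a peak 867276 bases from the protocadherin gene Pcdh9 the control mean was 3.30 (FDR = 0.0464). The last 3 are on chromosome 14. Without these 5 the count that fell is 8. None of the 20 peaks past the threshold overlapped a RefSeq gene, and 292 of all 332 far-intergenic peaks overlapped none either.

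**Figure D4:**
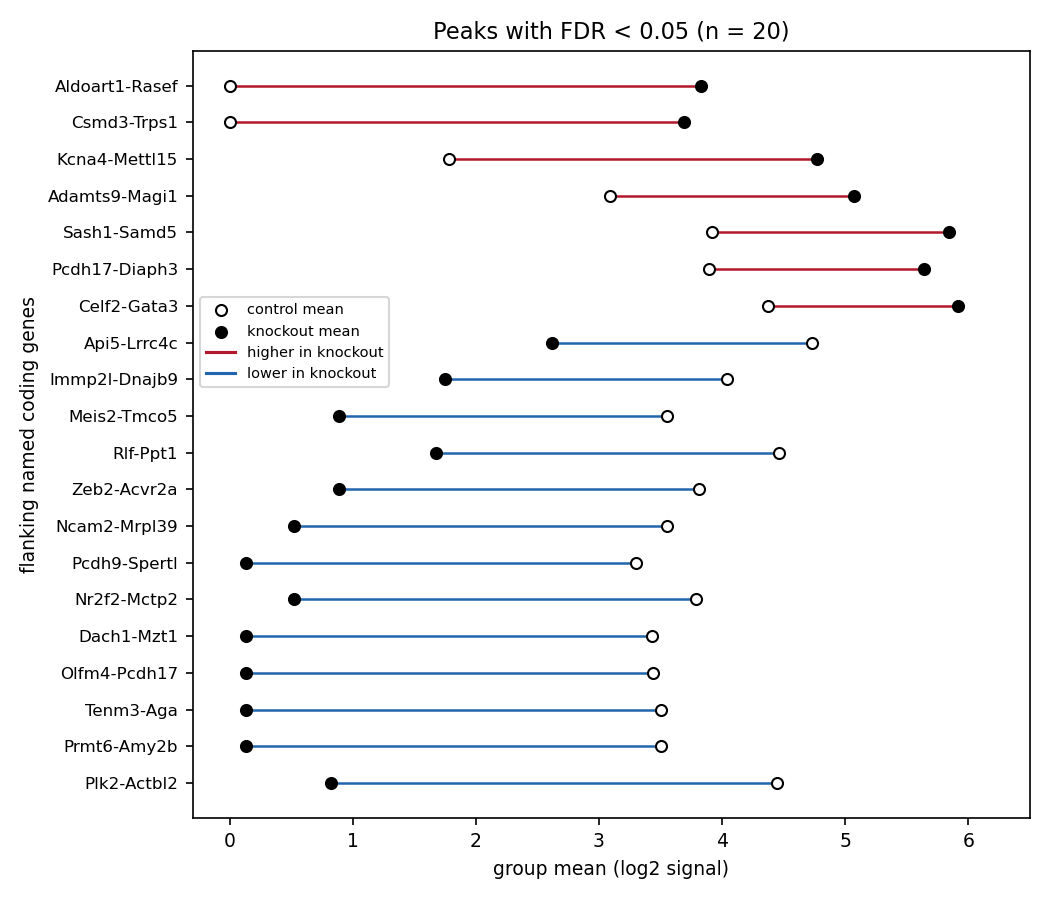
Control (open circles) and knockout (filled circles) group means in log2 signal (x axis) of the 20 peaks with FDR < 0.05, named by the coding genes on either side (y axis) and ordered by the deposited log2 fold. The 7 that rose (red) ended between 3.69 and 5.92, and the 13 that fell (blue) ended at or under 2.62, 5 of them at 0.13.

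The most accessible of the listed far-intergenic peaks had small log2 folds. This is not particular to them: over the whole table the median log2 fold was 0.80 at or above a mean signal of 3.74 and 1.43 below it. Only peaks with p of at most 0.0499 are listed, so weaker sites with small folds may be missing. The 6 peaks of highest mean signal all had higher knockout means in the authors' deposited table, and none passed FDR < 0.05. The strongest, between the ribosomal protein gene Rps24 and Zmiz1, had means of 7.56 and 6.95 (log2 fold 0.61, FDR = 0.375). A peak assigned to Gm17634 between Cdh20 and Rnf152 followed, at 7.0 and 6.31 (log2 fold 0.69, FDR = 0.389). One in the desert between Nmbr and the transcriptional co-regulator gene Cited2 had means of 6.88 and 5.90 (log2 fold 0.97, FDR = 0.0898), and a peak near Zeb1, described with the transcription factors, had the same mean signal of 6.47. The others were assigned to Xylt1, 4930529K09Rik and Tenm2, at log2 folds of 0.75, 0.67 and 0.66. Among peaks with both group means above their column's lowest value, the largest folds short of the threshold were at sites with 1 mean under 1. Between Cntn5 and Jrkl the means were 3.64 and 0.51 (log2 fold 3.14, FDR = 0.0791), and between Fam98a and Crim1 0.52 and 3.34 (log2 fold -2.82, FDR = 0.0702).

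Far-intergenic peaks in one desert were mostly listed with one direction. Counted by the pair of named coding genes around them, the peaks outside such genes fell into 216 spaces, and 150 of these held 1 peak. Of the 66 with 2 or more, 47 held higher peaks only, 4 lower peaks only and 15 both. Spaces with 4 or more peaks numbered 13, with 57 of their 60 peaks higher, and 11 of them had no lower peak. At closer range, 35 runs of 2 or 3 peaks with gaps under 50 kb held 76 peaks: 33 runs were higher throughout, 2 (at Plk2 and between Rlf and Ppt1) lower throughout and 0 mixed. Peaks of one desert share libraries and are not replicates, and with 81.6% of all these peaks listed higher no test of the grouping was made. In 4 of the 13 spaces a peak passed FDR < 0.05, and each of these rose.

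**Figure D5:**
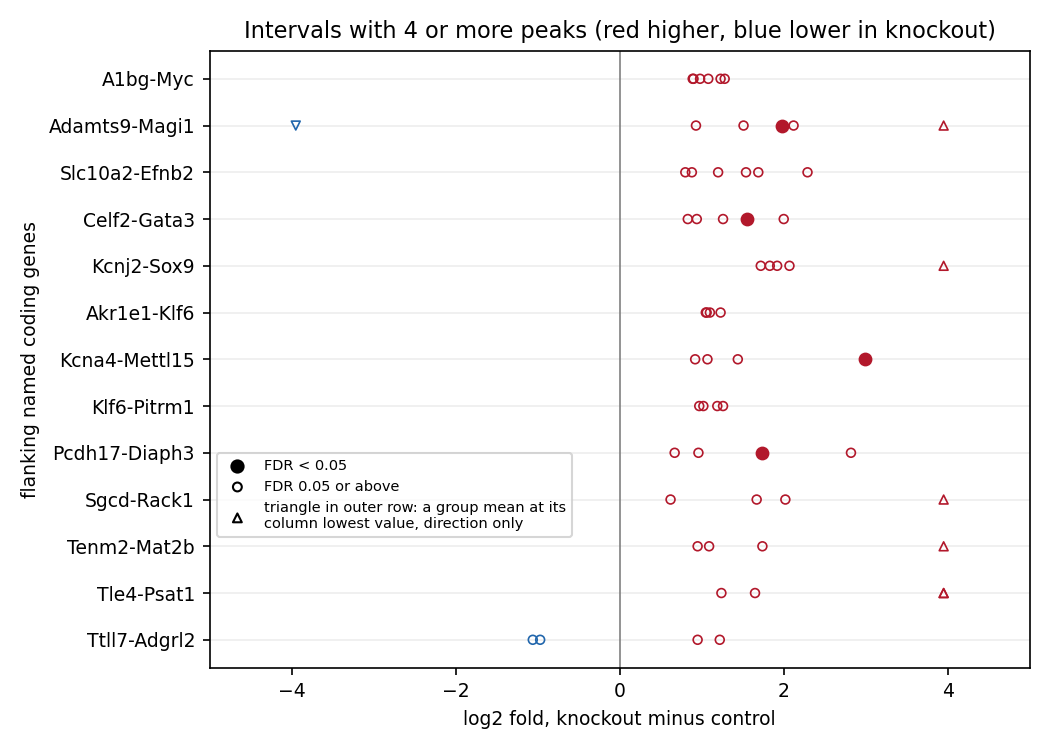
Log2 fold (x axis, knockout minus control, as deposited) of each far-intergenic peak in the 13 spaces between named coding genes (y axis) that hold 4 or more, red where knockout is higher and blue where it is lower. Filled circles passed FDR < 0.05 and triangles in the outermost columns are peaks with a group mean at its column's lowest value, direction only; 11 spaces hold higher peaks only, and the narrowest spreads are those beside Myc and Klf6.

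The desert between A1bg and Myc, a gene for a transcription factor that drives growth and the cell cycle, held 6 peaks. In the authors' deposited table their knockout means ran from 5.29 to 6.07 and their control means from 4.06 to 5.17. Their log2 folds lay between 0.89 and 1.28, the smallest FDR being 0.156. The deserts on both sides of Klf6, a zinc finger transcription factor gene known from injured and developing vessels, held 4 peaks each. Those between Akr1e1 and Klf6 had log2 folds from 1.05 to 1.23 and those between Klf6 and Pitrm1 from 0.97 to 1.26, with no FDR under 0.201. Each of these 14 peaks had a control mean of at least 2.72, and each knockout mean was higher by 0.89 to 1.28 on the log2 scale.

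Efnb2, which encodes ephrin-B2, a membrane ligand known for arterial identity and for sprouting, was the assigned gene with the most far-intergenic peaks. The 6 peaks lay between 208850 and 696044 bases from its TSS, in a desert of 3.51 Mb shared with Slc10a2. In the authors' deposited table the knockout means were 4.23, 5.68, 4.52, 4.86, 3.84 and 5.43 in order along the chromosome, against control means of 3.03, 4.88, 2.23, 3.17, 2.30 and 4.55. Every knockout mean was the higher one, with log2 folds from 0.80 to 2.29. None passed the threshold, the smallest FDR being 0.0599 at chr8:8274195-8274602. Of all 8 listed peaks assigned to Efnb2 at any distance, 7 were higher.

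The desert between the potassium channel gene Kcnj2 and Sox9, a transcription factor gene of cartilage, testis and Müller glia, held 5 peaks of low control signal. Their knockout means ran from 3.13 to 4.10 and their control means from 0 to 2.17 in the authors' deposited table. All were listed higher, the 4 with a control mean above 0 by 1.72 to 2.07 on the log2 scale, and the smallest FDR was 0.134. Between Celf2 and Gata3 all 5 peaks were higher, with control means from 0.88 to 4.95 and knockout means from 2.88 to 5.92. Between Kcna4 and Mettl15 the 4 peaks had log2 folds of 1.44, 0.92, 1.07 and 2.99. Next to the peak between Pcdh17 and Diaph3 that rose, 3 further peaks had log2 folds of 0.67, 0.96 and 2.82 with FDR from 0.0732 to 0.522.

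The desert between Adamts9 and Magi1 held peaks of both directions. Of its 6 peaks, 5 were listed higher, and the other, chr6:93544202-93544327, stood at 0.13 in knockout and 3.08 in control (FDR = 0.0891). The only other space of this size with both was that between Ttll7 and Adgrl2, a latrophilin gene, with 2 higher (log2 folds 1.22 and 0.95) and 2 lower (-1.06 and -0.97). One of the latter, chr3:148362429-148362996, was the most accessible far-intergenic peak among the 61 listed lower, at 5.41 in knockout and 6.38 in control (FDR = 0.479). For the other spaces with 4 peaks, between Sgcd and Rack1, between Tenm2 and Mat2b and between Tle4 and Psat1, every peak was listed higher.

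Vascular and angiogenic genes had 7 far-intergenic peaks among the 69 listed for them at any distance, where the whole table has 332 of 6891. Of 64 such genes in RefSeq, 5 had far-intergenic peaks, 5 listed higher and 2 lower, and none passed FDR < 0.05. Over all distances 63.8% of the 69 were higher, and 81.6% of all 332 far-intergenic peaks were. The peak of smallest FDR, 356732 bases from Pdgfc, a growth factor gene of the PDGF family, had means of 4.39 and 2.17 in the authors' deposited table (log2 fold 2.21, FDR = 0.0531). A peak 203475 bases from Prok2, a secreted prokineticin gene, had means of 4.36 and 3.03. Klf4, a transcription factor gene of endothelial flow responses, had one peak listed higher (4.80 and 3.71) and one lower (2.70 and 3.87). The peak 207858 bases from Cxcr4, the chemokine receptor gene expressed in tip cells, was listed lower, at 1.56 and 3.03 (FDR = 0.415). A further 14 peaks were flanked by a gene of this list but assigned to another, 12 listed higher and 2 lower. The 2 lower were the peak flanked by Nr2f2 that fell and 1 flanked by Nrp1. The 3 peaks between Pard3 and Nrp1, the neuropilin co-receptor gene of VEGF, stood at 3.68, 3.08 and 1.79 in knockout and 2.20, 1.17 and 3.34 in control.

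Guidance and ephrin genes had 8 far-intergenic peaks, 6 of Efnb2 and 1 each of Robo1, a receptor gene for Slit proteins, and Efna5, an ephrin-A gene. All 8 were listed higher, where 81.6% of all 332 far-intergenic peaks were, and none passed FDR < 0.05. The Robo1 peak was listed at 0 in control and 3.06 in knockout, and the Efna5 peak had means of 4.52 and 3.58 (FDR = 0.534) in the authors' deposited table. The 11 peaks flanked by a gene of this list and assigned elsewhere, among them Epha4, Epha7, Slit2 and Dcc, were also all listed higher, the nearest to the threshold standing at 3.55 in knockout and 0 in control between Slc4a3 and Epha4 (FDR = 0.0507). Over all distances, 35 of the 47 listed peaks of this gene list were higher.

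Developmental transcription factor genes had 28 peaks at 18 genes, 25 listed higher and 3 lower, none past FDR < 0.05. Of all 332 far-intergenic peaks 81.6% were listed higher, and over all distances 62.3% of the 122 listed peaks of this list were. The smallest FDR, 0.0665, belonged to a strong peak 263872 bases from Zeb1, a repressor of epithelial genes, with means of 6.87 and 5.92 in the authors' deposited table. Tle4, a co-repressor gene that acts with several such factors and with Wnt effectors, had 3 peaks, the one of smallest FDR at 5.30 and 3.66 (log2 fold 1.65, FDR = 0.0963). Sox11 had a peak at 4.47 and 2.72 and Setbp1 one at 3.73 and 1.84. The 3 listed lower were near Zfp608 (4.23 and 5.14), Maf (2.54 and 3.94) and Klf12 (4.03 and 4.79), and each of these genes also had a peak listed higher. Of 39 peaks that such a gene flanked without being the assigned one, 31 were listed higher and 8 lower. They include the peak flanked by Gata3 that rose and those flanked by Zeb2, Meis2 and Dach1 that fell.

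Cadherin and synaptic adhesion genes had peaks of both directions. Of 24 peaks at 18 genes, 14 were listed higher and 10 lower, with 1 risen (Csmd3) and 2 fallen (Lrrn3 and Pcdh9) at FDR < 0.05. Of all 332 far-intergenic peaks, 81.6% were listed higher, 2.11% rose and 3.92% fell. Short of the threshold in the authors' deposited table, the latrophilin gene Adgrl3 had a peak at 0.89 and 3.41 (log2 fold -2.52, FDR = 0.0746) and the cadherin gene Cdh19 one at 0.89 and 3.20 (log2 fold -2.31, FDR = 0.137). On the other side, a peak near the axonal adhesion gene Nrcam had means of 3.37 and 0.67 (log2 fold 2.71, FDR = 0.205). Over all distances 67.4% of the 92 listed peaks of this list were higher. The 42 peaks that such genes flanked without being assigned were 32 higher and 10 lower.

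Matrix and protease genes had 12 peaks at 9 genes, 10 listed higher and 2 lower, with 1 risen (Adamts9) and 1 fallen (Olfm4). Of all 332 far-intergenic peaks, 81.6% were listed higher, 2.11% rose and 3.92% fell. Over all distances 75.5% of the 102 listed peaks of this list were higher. A pair of peaks 216019 and 216238 bases from Hapln1, a gene for a link protein of hyaluronan, lay side by side. Their means were 3.49 and 0.88 for the wider (FDR = 0.12) and 3.06 and 0 for the other. They are at the Edil3 end of the 217 kb space between Edil3 and Hapln1. That space begins at base 89323226, and the first peak starts at base 89324355. In the authors' deposited table, a peak 285666 bases from the TSS of Edil3, whose integrin-binding matrix product is known from developing endothelium, was listed lower. Its means were 1.39 and 3.47 (log2 fold -2.09, FDR = 0.0934). Xylt1, which starts the sugar chains of proteoglycans, had a strong peak at 6.84 and 6.09 (FDR = 0.235).

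Pathways important in sprouting vessels were covered by 3 lists. At any distance, 46 peaks were listed for Wnt genes (67.4% higher), 14 for Notch genes (57.1%) and 41 for TGF-beta and BMP genes (61.0%). The counts that follow are of far-intergenic peaks only, which were 332 of all 6891 and 81.6% higher. Wnt pathway genes had 10 peaks at 5 genes, 9 listed higher and 1 lower. These were 3 of Tle4, 3 of Tbl1xr1, a co-regulator gene, 2 of the receptor gene Fzd8 (4.35 and 2.69 at 278981 bases, and 4.92 and 3.56 at 535578 bases), 1 of Ajap1 and, listed lower, 1 of Cxxc4 (2.13 and 3.54). Of the 37 genes in the Notch list only the ligand gene Jag1 had peaks, both listed higher: 4.56 and 2.70 at 293301 bases (FDR = 0.0702) and 4.97 and 4.21 at 222884 bases (FDR = 0.515) in the authors' deposited table. TGF-beta and BMP genes had 1 higher peak, near the pseudoreceptor gene Bambi (3.82 and 2.15), and 1 lower, near Bmper, a BMP-binding protein gene (2.66 and 3.84, shown above by sequence). No peak of these 3 lists passed FDR < 0.05. MicroRNA genes had 12 peaks at 10 genes, 10 higher and 2 lower, none past FDR < 0.05. Over all distances 63.8% of their 229 listed peaks were higher. The smallest FDR, 0.0663, was at a peak near Mir7094-2 with means of 1.39 and 3.66.

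The far-intergenic peaks made up from 1.44% of the listed peaks of chromosome 17 to 8.16% of those of chromosome 18. All 20 on chromosome 11 and all 6 on chromosome X were listed higher in the authors' deposited table, where 81.6% of all 332 were. The lowest shares were on chromosome 1, with 10 of 16, and chromosome 14, with 15 of 22. The 20 peaks with FDR < 0.05 were 6.02% of the 332. Chromosome 2 held 27 of the 332, 5 of them with FDR < 0.05, of which 2 rose and 3 fell. Chromosome 14 held 22, 4 of them with FDR < 0.05, of which 1 rose and 3 fell. No far-intergenic peak lay within 1 Mb of Rnf20 or Pdgfb, the floxed gene and the gene whose promoter drives Cre.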

How the data were processed

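ATAC-seq peaks of retinal endothelial cells were taken from 1 table, deposited as text and as a workbook whose values were equal in all 6891 rows. The submitters' processing notes give the build as mm10 and list, with no roles, the tools MACS2, DiffBind and edgeR, then Bowtie2 and SAMtools, then deepTools and ChIPseeker, and also Picard 1.119 and Trimmomatic 0.36. Read shifting, scaling and filters are not given in the sources at hand. Per the file headers, the authors deposited for each peak the mean, knockout and control signal and the fold change, all used as log2 values. They also deposited an unadjusted p-value and an FDR, and the distance, class and nearest gene of each peak. The log2 fold equalled knockout minus control within 0.011 in all 6891 rows.

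Members and gene lists were chosen with earlier results of these data known. Each assigned peak beyond 200 kb was placed between the nearest named coding genes of RefSeq (GRCm38.p6), and runs were ended by a gap of 50 kb. Counts, medians and 95% Wilson intervals were computed with Python 3.11.15, pandas 2.3.3 and SciPy 1.17.1, and the counting was tested on simulated data. The p-values and FDRs are the authors'. With no value per library used here, no SD or test of single peaks was computed, and the depth per library is unknown. Start windows on chromosome 18 were not used here, which leaves 312 of 332 peaks for distances to RefSeq starts. The text names all peaks with FDR < 0.05, the 6 of highest signal, those of largest fold short of the threshold, genes and spaces with 4 or more peaks, and up to 4 peaks per gene list and direction by p. The peaks in further spaces and those flanked by listed genes were picked after their values were seen. Settings tried are in the closing section. A motif search over all peaks was planned and not run, since no genome was used here.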

Additional observations from a re-analysis of the deposited data

How the results depend on the processing

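The share of far-intergenic peaks listed higher stayed above 50% and the median log2 fold above 0 under every setting run, and 9 settings for each of the 4 results moved the value by less than the limit used. At FDR < 0.01, 1 peak rose and 2 fell, and at FDR < 0.1, 27 and 23. Requiring an absolute log2 fold of at least 1 gave a median of 1.645. Keeping mean signal at or above the table median gave 1 peak that fell, 94.4% higher and a median of 1.07. Without group means at the column's lowest value 8 peaks fell. Beyond 300 kb 4 peaks rose, and beyond 500 kb 1 rose and 6 fell, with 68.75% higher. At unadjusted p < 0.01 the share was 74.1% and the median 1.645. A limit to signal below the table median, chosen after seeing the data, gave 2 peaks that rose, 73.9% higher and a median of 1.79. The causes of these changes were not tested. The filters also leave fewer peaks. Leaving out peaks inside RefSeq genes and keeping peaks with no coding start within 200 kb were also added after seeing the data and moved nothing beyond that limit.

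No paired analysis was possible because the table gives group means only. For the same reason the results were not recomputed without single libraries. The depth per library is unknown, so its effect on the peaks with a group mean under 1, where levels repeat, could not be measured.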

Other observations

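Of the far-intergenic peaks, 4 lay inside named coding genes of RefSeq although their class is Intergenic. In the authors' deposited table the knockout and control means were 6.78 and 6.11 in Tenm2, 3.29 and 1.51 in Ppargc1a, 5.15 and 3.87 in Zfp536, and 2.74 and 4.00 in Nrg1. The first 3 are assigned to the gene they lie in, at 292322, 262709 and 393919 bases from its start. None passed FDR < 0.05. Among all 40 peaks that overlap a RefSeq gene 29 were listed higher (72.5%, Wilson interval 57.2 to 83.9), against 242 of 292 elsewhere (82.9%, 78.1 to 86.8).

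The distance recomputed from RefSeq starts matched the deposited one within 5 bases for 224 of the 233 peaks whose assigned gene had a start window.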
